A study of Homo sapiens with 9 samples.

Results

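The 35 genes described here encode aminoacyl-tRNA synthetases, the enzymes that attach each amino acid to its transfer RNA. They were taken by symbol from a table of read counts for 28307 genes in SW620 cells. Of the 35 genes, 19 make cytosolic enzymes, namely those whose symbol ends in 1 together with FARSA and FARSB, the subunits of the cytosolic phenylalanyl enzyme. The other 16 make mitochondrial enzymes and end in 2. All 35 passed the filter on low counts and were among the 15619 genes tested.

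SW620 is an established human line that was derived from a metastatic colon adenocarcinoma, and all cells were labelled wild type. They were grown in suspension on low-attachment plates, in DMEM/F12 with N2 supplement, glucose, insulin, basic FGF and EGF. The 9 libraries fell into 3 groups of 3: cells with no antibiotic (untreated), cells with 120 µM streptomycin (SM) and cells with 120 µM dihydrostreptomycin (DSM), each for 48 h. The design text describes the 3 libraries of a group as biological replicates and 120 µM as an EC50, but of which response it does not say. Nothing else ties a replicate to its own culture, so the p-values measure the spread between these libraries. SM is an aminoglycoside antibiotic that acts on the bacterial ribosome, and in DSM the aldehyde of its streptose sugar is reduced to an alcohol.

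Human cells keep separate sets of synthetases for protein synthesis in the cytosol and in mitochondria, both encoded in the nucleus, and GARS1 and KARS1 each supply both compartments. Several cytosolic synthetases sit in the multisynthetase complex, held together by the scaffold proteins AIMP1, AIMP2 and EEF1E1. When uncharged transfer RNA accumulates, the kinase GCN2 phosphorylates the initiation factor eIF2, and translation of the transcription factor ATF4 increases. ATF4 is known to act on genes of amino acid synthesis, amino acid transport and cytosolic tRNA charging, through an element with the core TGATGNAA.

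The promoters of 7 cytosolic synthetase genes and 1 mitochondrial gene contained this core. The matches of 6 of these genes are printed, and those of TARS1 and GARS1 are left out because of where their entries start. RefSeq promoter sequences (GRCh38.p14, from 250 bases before to 50 after a gene's start) matched 30 of the 35 genes, and LARS1, VARS1, YARS1, AARS2 and VARS2 had no entry. The 30 matched genes had 39 promoter entries, and a gene was counted once if any of its entries held the motif. The core TGATGNAA, searched on both strands, was present for 7 of 16 matched cytosolic genes (43.8%) and 1 of 14 mitochondrial genes (7.14%). Of all 27305 genes with an entry it was present for 1217 (4.46%). The form TGATGCAA, which is contained in the first motif, was present for 6 cytosolic genes, no mitochondrial gene and 1.08% of all. For TARS1 and GARS1 the entry's start lies inside the gene coordinates of RefSeq, and their matches are not printed. Of the printed matches, that of NARS1 also lies inside the gene, and those of CARS1 and MARS1 span the gene's first base. For the other 6 genes each line below gives 48 bases on the gene's strand, with the match in capitals; TTGCATCA is a match on the opposite strand.
IARS1, chr9:92293695-92293742, minus strand: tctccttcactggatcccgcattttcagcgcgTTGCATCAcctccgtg
CARS1, chr11:3057410-3057457, minus strand: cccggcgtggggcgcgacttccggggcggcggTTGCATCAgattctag
MARS1, chr12:57488032-57488079, plus strand: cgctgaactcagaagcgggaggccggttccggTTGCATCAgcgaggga
AARS1, chr16:70289678-70289725, minus strand: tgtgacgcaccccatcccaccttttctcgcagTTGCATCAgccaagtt
NARS1, chr18:57621807-57621854, minus strand: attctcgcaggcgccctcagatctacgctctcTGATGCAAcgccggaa
YARS2, chr12:32756079-32756126, minus strand: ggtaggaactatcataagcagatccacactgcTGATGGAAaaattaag
In IARS1, CARS1, MARS1 and NARS1 the first base of the match was at -13, -2, -4 and 15, counting the start of the RefSeq promoter entry as 1 and the base before it as -1. In AARS1 and YARS2 it was at -187 and -197. For TARS1 and GARS1 the entry's start lies downstream of the gene's first base in RefSeq, so their matches (3 and -33 from the entry's start) are not given against the gene's first base. A match is a description of the letters and was not tested as a binding site.

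Total counts ran from 39315662 (SM replicate 2) to 65562227 (untreated replicate 1), and the 35 genes took 0.508% to 0.636% of each library. The epithelial markers EPCAM (414 to 463 CPM, counts scaled to the library total) and VIL1 (399.5 to 516 CPM) were present in every library, while the epithelial markers KRT20, LGALS4 and CDX1 were under 1 CPM. The libraries numbered 1 stood apart in all 3 groups, and several markers of other cell types moved with the number. The 3 fibroblast markers that passed the filter, of 6 listed, summed to 24.8 to 26.9 CPM in the libraries numbered 1 and 12.5 to 19.3 CPM in the others, with COL3A1 and DCN at 0 in all 9. The 2 leukocyte markers that passed, of 5, summed to 8.52 to 8.86 against 4.86 to 6.68 CPM, nearly all of it LYZ, with PTPRC and CD3E at or near 0. The 2 endothelial markers that passed, of 4, summed to 4.02 to 4.40 against 1.84 to 2.81 CPM, with CDH5 and KDR at or near 0. The 9 of 10 colon epithelial markers that passed summed to 13540 to 14871 against 11299 to 12031 CPM. Most of that was KRT8, KRT18 and KRT19 (6447, 3485 and 1435 CPM on average). CDX2 went the other way, higher in numbers 2 and 3 by 0.20 and 0.44 on the log2 scale (edgeR adjusted p = 9.38e-05). CD14 and PDGFRB, both under 1 CPM, were not called between replicate numbers. In the fit with the replicate number, LUM (log2 fold change -0.41), KRT19 (-0.18) and VIL1 (-0.14) of these lists were also lower with SM than in untreated cells, and LUM (-0.46), CDH1 (-0.27), KRT19 (-0.14) and VIL1 (-0.14) were lower with SM than with DSM. Their part in the results was not tested.

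Cytosolic synthetase mRNAs were the more abundant set. Expressed as CPM per kilobase of coding sequence, averaged over the 9 libraries, the 19 cytosolic genes ran from 43.8 to 349 with a median of 99.6, and the 16 mitochondrial genes from 4.81 to 93.7 with a median of 22.6. KARS1, the lysyl enzyme of both compartments, had the highest level per coding kilobase (349), followed by TARS1, the cytosolic threonyl enzyme (251). CARS2, the mitochondrial cysteinyl enzyme (93.7), and EARS2, the mitochondrial glutamyl enzyme (40.6), led the mitochondrial set, and the prolyl enzyme PARS2 was lowest. For 13 amino acids the cytosolic and mitochondrial genes share a name but for the final 1 or 2; EPRS1, FARSA and FARSB, whose counterparts EARS2, PARS2 and FARS2 differ in name or number, were not paired. The cytosolic gene had the higher level per coding kilobase in 12 of these pairs, with a median ratio of 4.33 and the highest ratio, 12.4, for TARS1 over TARS2. The exception was cysteine, where CARS1 stood at 0.581 of CARS2.

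The groups overlapped for the 2 most abundant genes of each set. KARS1 stood at 656, 672 and 643 CPM in untreated replicates 1, 2 and 3, at 655, 657 and 658 CPM with SM, and at 649, 673 and 628 CPM with DSM. TARS1 measured 558, 569.8 and 541 CPM untreated, 534, 618 and 612 CPM with SM, and 566, 579.5 and 538 CPM with DSM. In both genes the groups overlapped. CARS2 ran from 151 to 165 CPM and EARS2 from 60.5 to 69.3 CPM over the 9 libraries, also with overlapping groups. In SM against untreated, fitted with the replicate number as described below, the log2 fold changes were -0.00 (SE 0.03) for KARS1, 0.08 (SE 0.04) for TARS1, 0.01 (SE 0.03) for CARS2 and 0.02 (SE 0.04) for EARS2. Their edgeR adjusted p were 1.00, 0.373, 0.934 and 0.868.

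**Figure D1:**
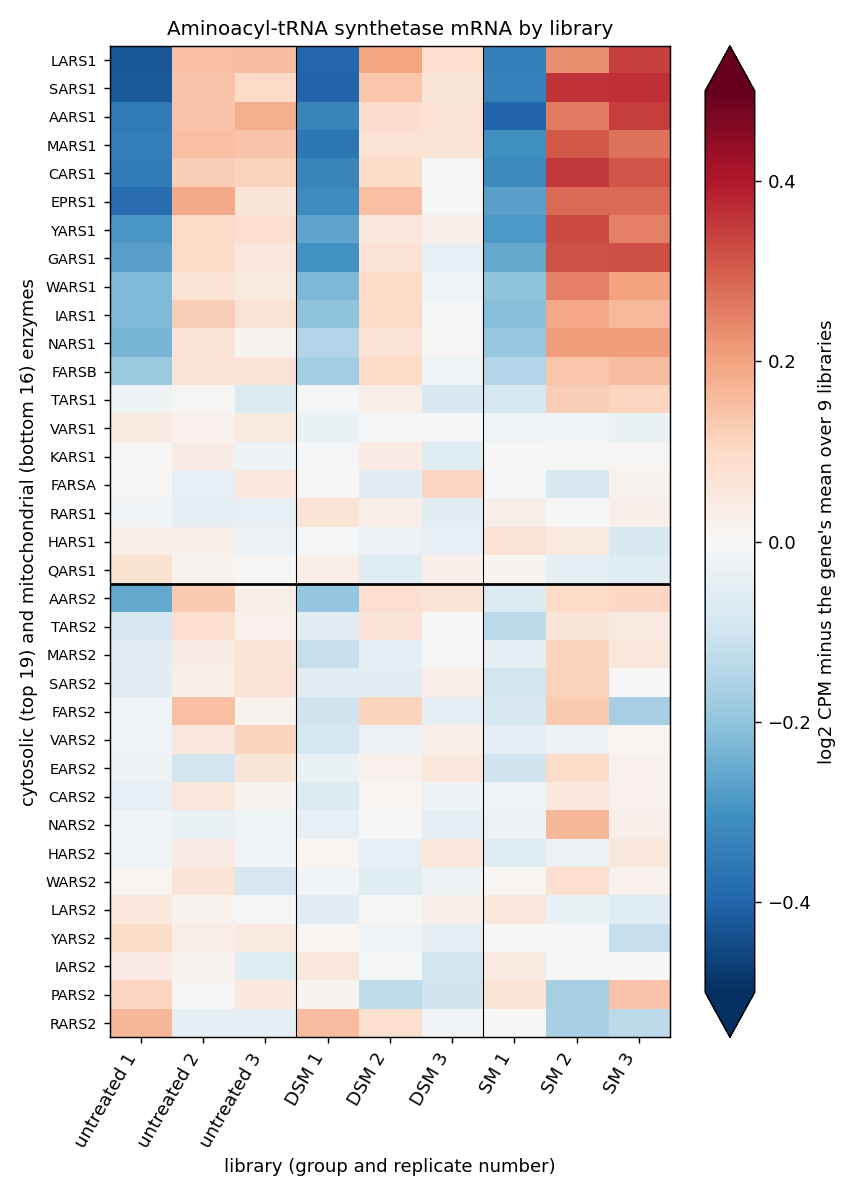
Each cell is the log2 CPM of 1 synthetase gene (rows, 19 cytosolic above 16 mitochondrial) in 1 library (columns), minus that gene's mean over the 9 libraries. The 3 columns numbered 1 are low for 12 of the cytosolic genes, and the columns SM 2 and SM 3 are the highest for those 12.

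The largest differences among the synthetases were between replicate numbers, not between treatments. The labels do not say what a number shares, but same-numbered libraries of different groups deviated together, so the number was fitted as a term beside the group. With it, 6360 of 15619 genes differed between replicate numbers (40.7%), and so did 13 of 19 cytosolic and 4 of 16 mitochondrial synthetases (68.4% and 25.0%). The cytosolic genes had a median log2 difference of 0.35 for number 2 minus number 1 and 0.29 for number 3 minus number 1, beside medians of 0.06 and 0.03 in the mitochondrial set and 0.00 and 0.00 over all genes tested.

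LARS1, the leucyl enzyme, was at 129, 137 and 132 CPM in the untreated, SM and DSM libraries numbered 1. It was at 193, 205 and 199 CPM in those numbered 2 and at 194, 221 and 185 CPM in those numbered 3. Every library numbered 1 was below every library numbered 2 or 3, whatever the treatment. Its log2 difference was 0.58 (SE 0.04) for both numbers against number 1, with an edgeR adjusted p of 9.88e-12. SARS1, the seryl enzyme, differed by 0.60 (SE 0.04) and 0.56 (SE 0.04), MARS1, the methionyl enzyme, by 0.52 (SE 0.03) and 0.50 (SE 0.03), and AARS1, the alanyl enzyme, by 0.52 (SE 0.04) and 0.56 (SE 0.04), with edgeR adjusted p of 1.41e-11, 3.32e-11 and 3.56e-10. EPRS1, CARS1, YARS1, GARS1, IARS1, WARS1, NARS1 and FARSB were higher in numbers 2 and 3 as well, and FARSA was called with differences of only -0.06 and 0.06. The 6 cytosolic genes that were not called were HARS1, TARS1, QARS1, KARS1, RARS1 and VARS1, between -0.08 and 0.09.

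In the mitochondrial set, AARS2 was higher in numbers 2 and 3 (0.28 and 0.24, SE 0.04 each), TARS2 by 0.16 and 0.11 (SE 0.04 each), and FARS2 in number 2 (0.19, SE 0.06). RARS2, the mitochondrial arginyl enzyme, was the 1 called gene of the set that was lower in both (-0.15 and -0.17, SE 0.05 each). A list of 13 cytosolic synthetases linked to ATF4 held 11 of the called genes, with a median of 0.44 for number 2 minus number 1. The other 6 cytosolic genes held the remaining 2, FARSB and FARSA, with a median of -0.03. The list was chosen with earlier results of these data known, so this split is a description and was not tested.

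**Figure D2:**
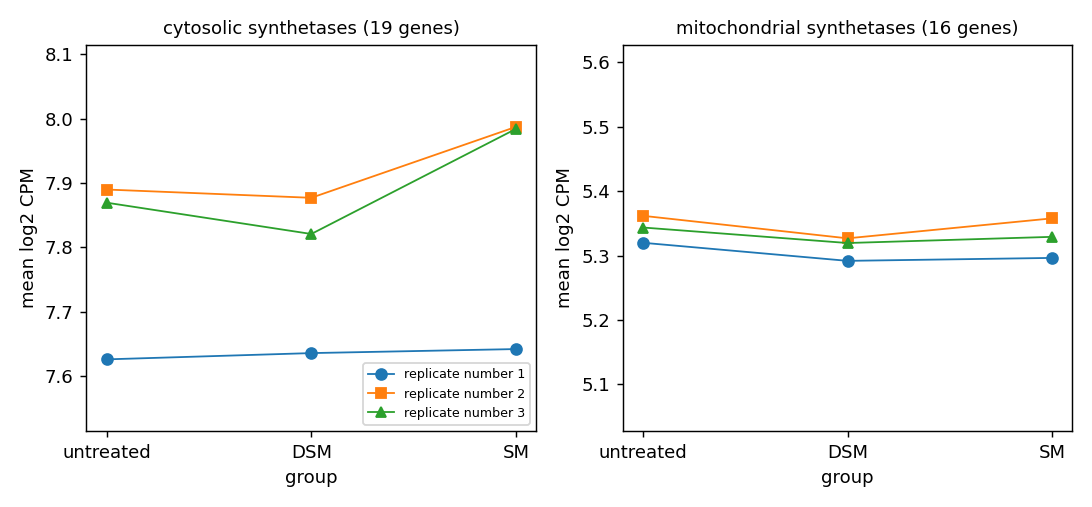
Mean log2 CPM of the 19 cytosolic genes (left) and 16 mitochondrial genes (right) in each library, by group on the horizontal axis, with 1 line per replicate number and the same span on both vertical axes. The cytosolic mean is 7.63 to 7.64 in the libraries numbered 1 and 7.82 to 7.99 in the others, and the mitochondrial mean lies between 5.29 and 5.36 in all 9.

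The first treatment comparison asked whether SM changed synthetase mRNA relative to untreated cells. Without the replicate number in the fit, edgeR called 0 of 35 synthetases, and 0 had an unadjusted p under 0.05; it called 3 of 15619 genes as higher (0.0192%) and 0 as lower (0%). DESeq2 and voom without the number called 0 of 35 too, beside 11 and 3 genes of all tested. With the replicate block, 4 cytosolic genes were called higher, SARS1, GARS1, EPRS1 and CARS1, and none lower, where 187 genes of all tested were higher (1.2%) and 241 lower (1.54%), or 2.74% in all. None of the 16 mitochondrial genes was called. The cytosolic median log2 fold change was 0.08 with the block (0.10 without it), with 15 of 19 positive, beside -0.01 in the mitochondrial set, with 7 of 16 positive, and -0.00 over all genes tested.

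SARS1 (chr1:109213893-109238182), the seryl enzyme, measured 152, 224 and 218 CPM in untreated replicates 1 to 3 and 161, 261 and 262 CPM with SM. SM replicates 2 and 3 were above all untreated libraries, but SM replicate 1 was below untreated replicates 2 and 3, so the groups overlapped. Within pairs of the same number SM was higher in 3 of 3, and the blocked log2 fold change was 0.19 (SE 0.04, adjusted p = 0.00411, edgeR). Without the block it was 0.20 with an SE of 0.23.

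GARS1 (chr7:30594735-30634033), the glycyl enzyme of both compartments, measured 254.9, 330.0 and 320.3 CPM untreated and 257, 384 and 384 CPM with SM. CARS1 (chr11:3000929-3057423), the cysteinyl enzyme, measured 105, 145 and 144 CPM untreated and 107, 171 and 166 CPM with SM. EPRS1 (chr1:219968600-220046505), which charges both glutamate and proline, measured 151, 224 and 205 CPM untreated and 162, 238 and 239 CPM with SM. All 3 showed the arrangement of SARS1: the groups overlapped, and SM was the higher member of 3 of 3 pairs. The blocked log2 fold changes were 0.17 (SE 0.04, edgeR adjusted p = 0.0285), 0.16 (SE 0.04, adjusted p = 0.0404) and 0.14 (SE 0.04, adjusted p = 0.0378). Without the block the SE were 0.17, 0.20 and 0.20.

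The pairs were not alike. GARS1 and CARS1 differed by 0.01 and 0.03 on the log2 scale in pair 1, by 0.22 and 0.23 in pair 2 and by 0.26 and 0.20 in pair 3. For SARS1 these values were 0.08, 0.22 and 0.27, and for EPRS1 0.11, 0.09 and 0.22. Over the 19 cytosolic genes the mean log2 CPM was 0.02 higher with SM in pair 1, 0.10 in pair 2 and 0.11 in pair 3, while the mitochondrial mean was lower by 0.02, 0.00 and 0.01. Whether the SM difference itself depends on the replicate number was not tested, since each number holds 1 library per group.

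The calls rested on few libraries. With the block, the 4 calls became 0 without untreated replicate 2, untreated replicate 3 or SM replicate 3, 1 without untreated replicate 1 and 11 without SM replicate 1. Calls over all genes tested moved too, from 428 to 169, 149, 268, 187 and 569 in these settings, in the same order. DESeq2 with the block did not call GARS1, and voom with the block did not call CARS1. With the 6 libraries numbered 2 and 3 alone, a setting chosen after seeing the data, SARS1 and GARS1 were called higher without the block, beside 37 of 15645 genes higher (0.236%) and 36 lower (0.23%). With the block, CARS1, NARS1, WARS1 and YARS1 joined them, beside 142 genes higher (0.908%) and 166 lower (1.06%), while EPRS1 was not called.

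**Figure D3:**
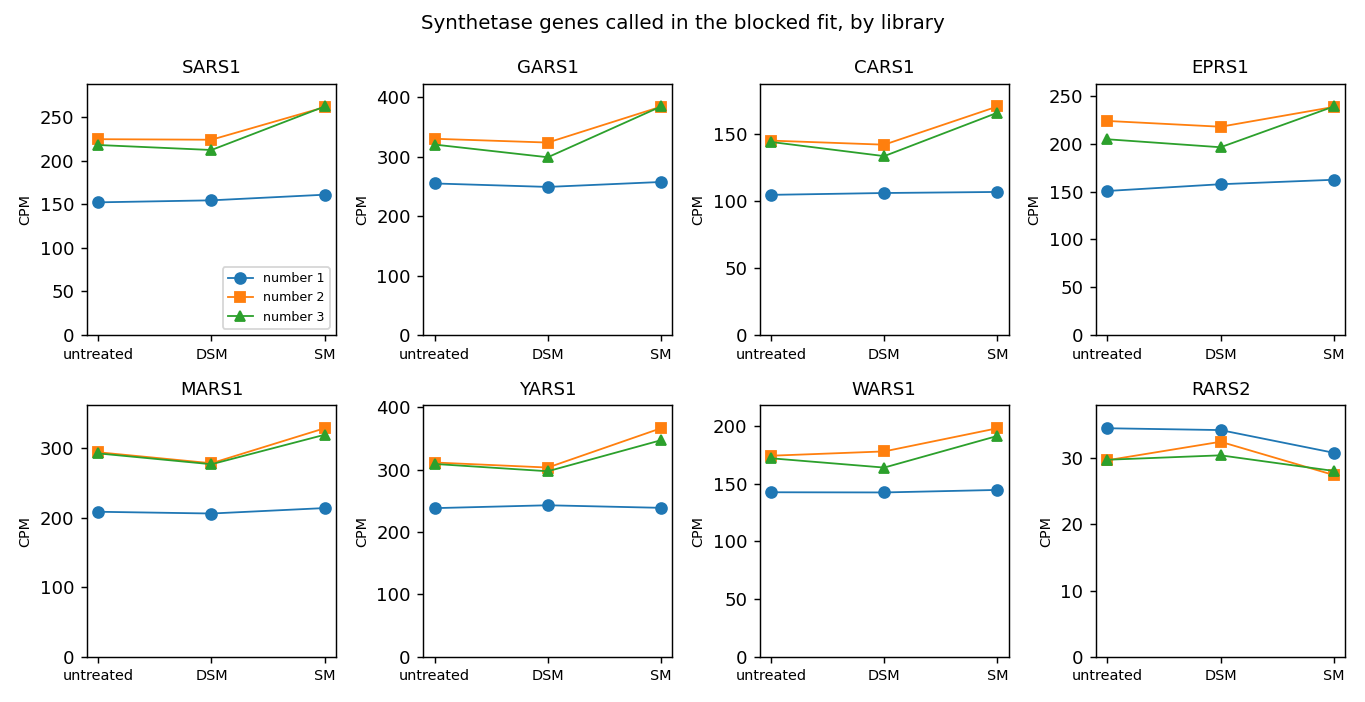
CPM of the 8 synthetase genes called in any comparison with the replicate block, in untreated, DSM and SM libraries, with 1 line per replicate number and vertical axes from 0. For the 7 cytosolic genes the SM libraries numbered 2 and 3 are the highest of the 9, and the 3 libraries numbered 1 lie close together; for RARS2 the SM libraries are the lowest of each number.

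Among the cytosolic genes that were not called in SM against untreated, YARS1 (0.14), NARS1 (0.13), LARS1 (0.12), WARS1 (0.12) and MARS1 (0.11) had the next largest log2 fold changes, with edgeR adjusted p between 0.0674 and 0.101 in the blocked fit. The 4 genes below 0 were QARS1 (-0.07), VARS1 (-0.06), FARSA (-0.03) and KARS1 (-0.00), and SM was the lower member of 3 of 3 pairs for the first 3 of them. SM was the higher member of 3 of 3 pairs for 12 cytosolic genes and for no mitochondrial gene. Of the 7 enzymes listed for the multisynthetase complex, EPRS1 was called and the median was 0.06. Of the 12 cytosolic enzymes outside it, SARS1, GARS1 and CARS1 were called, with a median of 0.10.

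The mitochondrial genes showed no call and small differences. RARS2 measured 34.5, 29.7 and 29.8 CPM untreated and 30.8, 27.5 and 28.1 CPM with SM, a blocked log2 fold change of -0.12 (SE 0.05, edgeR adjusted p = 0.206). The groups overlapped, and SM was lower in 3 of 3 pairs. YARS2, the tyrosyl enzyme, measured 49.0, 47.1 and 47.6 CPM untreated and 45.9, 45.9 and 42.5 CPM with SM. Its 3 SM libraries were below all 3 untreated libraries, with a log2 fold change of -0.10 (SE 0.04, edgeR adjusted p = 0.231). The 3 DSM libraries of YARS2 were below them as well (46.3, 45.5 and 44.4 CPM), and SM minus DSM was -0.02 (SE 0.04). VARS2, the valyl enzyme, measured 45.8, 48.3 and 50.3 CPM untreated and 44.96, 45.6 and 46.7 CPM with SM (-0.07, SE 0.04, edgeR adjusted p = 0.417). For the other 13 genes the estimates lay between -0.09 (FARS2) and 0.08 (NARS2).

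Set side by side for the same amino acid, the SM difference of the cytosolic gene was above that of the mitochondrial gene in 13 of these 13 pairs. The widest gaps were those of YARS1 and YARS2 (0.14 and -0.10), SARS1 and SARS2 (0.19 and -0.01) and RARS1 and RARS2 (0.05 and -0.12). The narrowest was that of AARS1 and AARS2 (0.08 and 0.08). This gap and those of VARS1 and VARS2 (-0.06 and -0.07) and HARS1 and HARS2 (0.01 and -0.01) were below the SE of either gene. The count was 9 of 13 in DSM against untreated. For number 2 or number 3 minus number 1 it was 10 of 13. All pairs come from the same 9 libraries, so they are not independent. Among the 16 cytosolic genes with a promoter entry, the 7 with the TGATGNAA core included GARS1 and CARS1 of the 4 called genes, and the 9 without it included SARS1 and EPRS1.

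**Figure D4:**
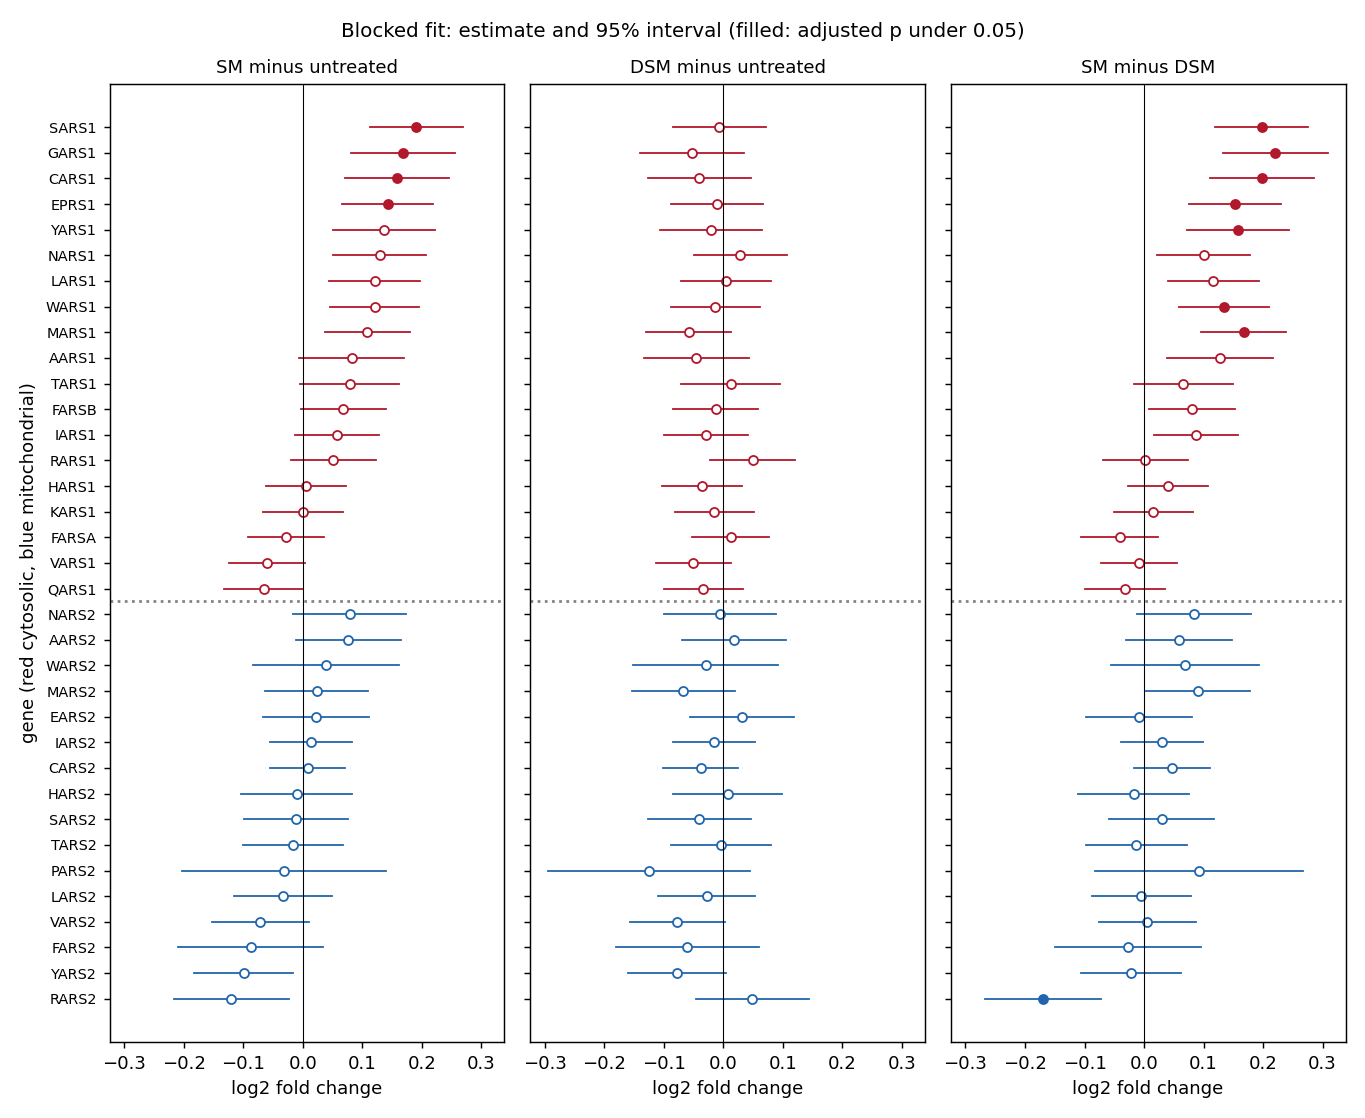
Blocked log2 fold change of each of the 35 genes (points, cytosolic in red above mitochondrial in blue) with its 95% interval, for SM minus untreated, DSM minus untreated and SM minus DSM; filled points have an adjusted p under 0.05. Filled points are 4 in the first panel, 0 in the second and 8 in the third, all 8 but RARS2 being cytosolic and to the right of 0.

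DSM at the same dose and time left the synthetases near their untreated levels. EdgeR called 0 of 35 synthetases with or without the block, and 0 had an unadjusted p under 0.05 in either fit. Over all genes it also called 0 of 15619 (0%), with an unadjusted p under 0.05 for 103 without the block and 650 with it, and DESeq2 and voom called 0 in both forms. The cytosolic log2 fold changes lay between -0.06 (MARS1) and 0.05 (RARS1) with a median of -0.02, and 5 of 19 were positive. The mitochondrial ones lay between -0.12 (PARS2) and 0.05 (RARS2) with a median of -0.03, and 4 of 16 were positive. DSM was the lower member of 3 of 3 pairs for 4 cytosolic and 6 mitochondrial genes, and the higher member of 3 of 3 for 0. VARS1 (-0.05), VARS2 (-0.08) and YARS2 (-0.08) were among the lower ones, so these 3 were lower with both compounds.

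For the genes called with SM, the DSM libraries stood beside the untreated ones. SARS1 measured 154, 224 and 212 CPM with DSM in replicates 1 to 3, a blocked log2 fold change of -0.01 with a 95% interval from -0.08 to 0.07. GARS1 measured 249.1, 324 and 299 CPM (-0.05, interval -0.14 to 0.03), CARS1 106, 142 and 134 CPM (-0.04, interval -0.13 to 0.05) and EPRS1 158, 218 and 196 CPM (-0.01, interval -0.09 to 0.07). Without the block the intervals were wider, -0.54 to 0.52 for SARS1 and -0.45 to 0.34 for GARS1. For CARS1 and EPRS1 they were -0.51 to 0.42 and -0.47 to 0.44. Each of these DSM groups overlapped the untreated group. In the libraries numbered 2 and 3 alone 0 synthetases were called, with or without the block, beside 0 of 15645 genes without it and 1 lower with it (0.00639%).

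The comparison of SM with DSM, which differ at the streptose aldehyde, gave the most synthetase calls. Without the block edgeR called 0 of 35 synthetases and 0 of 15619 genes (0%), with an unadjusted p under 0.05 for 0 of the 35 and 396 of all genes, while DESeq2 called 8 genes and voom 0, none of them a synthetase. With the block, 7 cytosolic genes were higher with SM than with DSM, beside 270 genes of all tested (1.73%), and 1 mitochondrial gene was lower, beside 336 (2.15%), or 3.88% of genes in both directions. The cytosolic median was 0.10, with 16 of 19 positive, against 0.02 in the mitochondrial set, with 9 of 16 positive, and -0.00 over all genes tested. This comparison shares its SM libraries with that of SM and untreated, so the estimates of the 2 comparisons are not independent. Of the marker lists, 3 of 9 colon epithelial markers (CDH1, KRT19 and VIL1) and 1 of 3 fibroblast markers (LUM) were called lower with SM than with DSM, and their part in the synthetase result was not tested.

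GARS1 differed most, by 0.22 (SE 0.04, edgeR adjusted p = 0.00265), followed by CARS1 by 0.20 (SE 0.04, adjusted p = 0.00621) and SARS1 by 0.20 (SE 0.04, adjusted p = 0.00249). EPRS1 differed by 0.15 (SE 0.04, edgeR adjusted p = 0.0187). For these 4 genes SM was higher in 3 of 3 pairs.

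The other 3 calls were MARS1, YARS1 and WARS1. MARS1 (chr12:57488068-57516652) measured 214, 329 and 319.7 CPM with SM and 206, 279 and 277 CPM with DSM, with 209, 294 and 293 CPM untreated. Its blocked log2 difference was 0.17 (SE 0.03, edgeR adjusted p = 0.00541). Exons of MARS1 share 355 bases with DDIT3 on the opposite strand, a gene at 14.2 CPM on average beside 269 CPM for MARS1, and the strand setting of the counting is not given in the sources used here.

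YARS1 (chr1:32775239-32817358), the tyrosyl enzyme, measured 239, 366 and 347 CPM with SM, 242.9, 303 and 297 CPM with DSM, and 238, 311 and 309 CPM untreated. It was lower with SM in pair 1 and higher in pairs 2 and 3, for a difference of 0.16 (SE 0.04, edgeR adjusted p = 0.0303). WARS1 (chr14:100333790-100376327), the tryptophanyl enzyme, measured 145, 198 and 191 CPM with SM, 142, 178 and 164 CPM with DSM, and 143, 174 and 172 CPM untreated. It differed by 0.13 (SE 0.04, edgeR adjusted p = 0.0382), in the same direction in 3 of 3 pairs.

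RARS2 (chr6:87513938-87589987) was the mitochondrial gene called, and it was lower with SM. It measured 34.2, 32.5 and 30.4 CPM with DSM and 30.8, 27.5 and 28.1 CPM with SM, so the SM library was the lower in 3 of 3 pairs while the groups overlapped. The difference was -0.17 (SE 0.05, edgeR adjusted p = 0.0429). It was not called when any 1 of the 9 libraries was left out (adjusted p from 0.0641 to 0.295) nor, with the block, in the libraries numbered 2 and 3 alone (adjusted p = 0.133).

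These calls also moved with single libraries. With the block, the 8 calls became 0 without SM replicate 3 or DSM replicate 3, 2 without DSM replicate 2, 4 without SM replicate 2, 5 without untreated replicate 1 or 3 and 12 without SM replicate 1. Calls over all genes tested moved too, from 606 to 326, 265, 286, 407, 455, 423 and 846, in the same order. DESeq2 with the block did not call GARS1, YARS1 and RARS2. Within pairs, the cytosolic mean log2 CPM with SM minus DSM was 0.01, 0.11 and 0.16 for numbers 1, 2 and 3, and the mitochondrial mean 0.00, 0.03 and 0.01. In the libraries numbered 2 and 3 alone, 6 cytosolic genes were called higher without the block (AARS1, CARS1, GARS1, MARS1, SARS1 and YARS1), beside 82 of 15645 genes higher (0.524%) and 104 lower (0.665%). With the block 9 were, beside 261 genes higher (1.67%) and 366 lower (2.34%).

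For the cytosolic genes that were not called, the intervals of the blocked fit bound the difference between the 2 compounds. Over the cytosolic genes the median 95% half-width was 0.0753 with the block and 0.292 without it. KARS1 differed by 0.02 (95% interval -0.05 to 0.08), RARS1 by 0.00 (-0.07 to 0.07), VARS1 by -0.01 (-0.07 to 0.05) and HARS1 by 0.04 (-0.03 to 0.11). QARS1 differed by -0.03 (-0.10 to 0.03) and FARSA by -0.04 (-0.11 to 0.02). AARS1 (0.13, interval 0.04 to 0.22), LARS1 (0.12, interval 0.04 to 0.19) and NARS1 (0.10, interval 0.02 to 0.18) were closer to the called genes, with edgeR adjusted p of 0.103, 0.0824 and 0.163. Next came IARS1 (0.09, interval 0.02 to 0.16), FARSB (0.08, interval 0.01 to 0.15) and TARS1 (0.07, interval -0.02 to 0.15). Their edgeR adjusted p were 0.188, 0.239 and 0.456. These are bulk libraries, in which more cells with a transcript and more transcript per cell cannot be told apart.

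**Figure D5:**
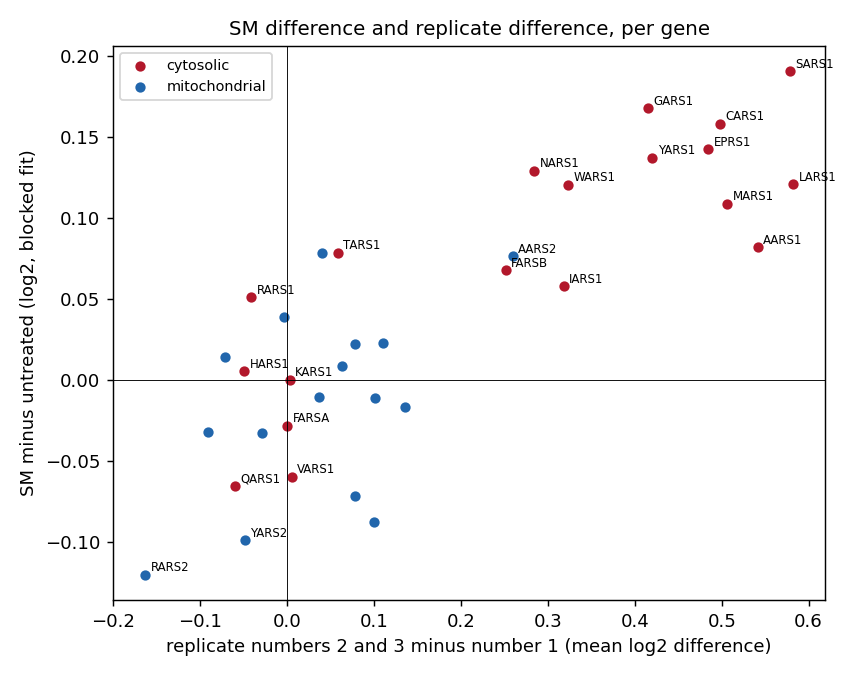
For each of the 35 genes, the blocked log2 difference of SM minus untreated (vertical) is plotted beside the mean log2 difference of replicate numbers 2 and 3 minus number 1 (horizontal); both come from the same 9 libraries. SARS1 is at 0.58 and 0.19, LARS1 at 0.58 and 0.12 and RARS2 at -0.16 and -0.12.

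Genes that work beside the synthetases were described from lists. Without the block edgeR called none of the genes in these lists in any comparison, so each call below comes from the blocked fit. Unlike the synthetase calls, these calls were not followed with a library left out or with other tools. The scaffold genes AIMP1, AIMP2 and EEF1E1 had 0 of 3 called in any comparison of treatments. The 6 mitochondrial partners, which are the amidotransferase subunits QRSL1, GATB and GATC, the formyltransferase MTFMT and the elongation factors TUFM and TSFM, also had 0 called. Between replicate numbers, where 40.7% of all genes were called, AIMP2, QRSL1 and TUFM of these genes were called. Their log2 differences for numbers 2 and 3 against number 1 were 0.31 and 0.28, 0.20 and 0.14, and 0.11 and 0.01. Of 5 genes of tRNA export and delivery, XPOT, which exports transfer RNA from the nucleus, was called. It measured 193, 302 and 295 CPM untreated, 219, 347 and 357 CPM with SM and 201, 293 and 279 CPM with DSM. The blocked log2 difference was 0.22 (SE 0.04, edgeR adjusted p = 8.17e-04) against untreated and 0.24 (SE 0.04, adjusted p = 2.24e-04) against DSM. The groups overlapped, and SM was higher in 3 of 3 pairs in both. XPOT differed more between replicate numbers, by 0.62 and 0.60 for numbers 2 and 3 against number 1. EEF1A1, EEF1B2, EEF1D and EEF1G, of the elongation factor that brings charged transfer RNA to the ribosome, lay between -0.02 and 0.04 against untreated.

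Of 8 genes of tRNA editing and related steps, 7 were tested, AARSD1 not passing the filter. DTD1, which removes D-amino acids from transfer RNA, was higher with SM than with DSM by 0.19 (SE 0.05, edgeR adjusted p = 0.0481), in 2 of 3 pairs, and 0 were called against untreated. Among 7 genes for eIF2 kinases and phosphatase subunits, PPP1R15A, a regulatory subunit that directs dephosphorylation of eIF2, was higher with SM than in untreated cells by 0.27 (SE 0.04, edgeR adjusted p = 5.42e-05). Its levels were 116, 142 and 108 CPM untreated and 134, 176 and 132 CPM with SM, higher with SM in 3 of 3 pairs. Against DSM (109.7, 143 and 117 CPM) it was higher by 0.25 (SE 0.04, edgeR adjusted p = 1.13e-04). EIF2AK4, the gene of GCN2, had a log2 fold change of 0.06 (SE 0.04, adjusted p = 0.506). Between replicate numbers 4 of the 7 editing genes and 3 of the 7 eIF2 genes were called. DTD1 differed by 0.42 and 0.39, and PPP1R15A by 0.35 and -0.01, for numbers 2 and 3 against number 1.

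A list of 24 genes of the amino acid response had 9 called higher with SM than in untreated cells and 14 than with DSM in the blocked fit, and 0 lower, where 1.2% and 1.73% of all genes tested were higher. Without the block 0 of the 24 were called in either comparison, and 0 had an unadjusted p under 0.05. Its median log2 fold change was 0.23 against untreated and 0.33 against DSM, and -0.08 for DSM against untreated with 0 called. Those higher against untreated were ASNS and PHGDH with the enzymes MTHFD2 (0.19) and ALDH1L2 (0.38) of mitochondrial folate metabolism, the transcription factor CEBPB (0.33), SESN2 (0.48), the amino acid transporters SLC7A1 (0.19) and SLC7A11 (0.30), and STC2 (0.39). Against DSM, ASNS was not called (0.37, SE 0.11, edgeR adjusted p = 0.0538) and ATF3 (0.37), CHAC1, PSPH (0.17), SLC3A2 (0.14), SLC7A5 (0.15) and VLDLR (0.43) were added. PHGDH, the first enzyme of serine synthesis, measured 51.0, 183 and 184 CPM untreated and 62.4, 219 and 219.8 CPM with SM, a difference of 0.27 (SE 0.04, edgeR adjusted p = 4.17e-05). ASNS, asparagine synthetase, stood at only 1.94, 6.36 and 5.38 CPM untreated and 2.16, 7.70 and 9.01 CPM with SM, a difference of 0.44 (SE 0.11, edgeR adjusted p = 0.0203).

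ATF4 itself measured 413, 569.7 and 581 CPM untreated and 421, 727 and 688 CPM with SM. SM was higher in 3 of 3 pairs, by 0.03, 0.35 and 0.24 on the log2 scale, but the gene was not called (0.21, SE 0.07, edgeR adjusted p = 0.158). DDIT3 (0.29, SE 0.12, adjusted p = 0.293), TRIB3 (0.25, SE 0.09, adjusted p = 0.243) and CHAC1 (0.60, SE 0.13, adjusted p = 0.0617) were not called against untreated either. DDIT3 measured 9.95, 16.3 and 13.2 CPM untreated and 10.3, 24.7 and 14.8 CPM with SM, TRIB3 203, 302 and 284 CPM untreated and 207, 396 and 352 CPM with SM, and CHAC1 4.88, 30.2 and 21.3 CPM untreated and 7.03, 38.2 and 39.8 CPM with SM. CHAC1, which degrades glutathione, was higher with SM than with DSM by 0.73 (SE 0.14, edgeR adjusted p = 0.025). In this list 23 of 24 genes also differed between replicate numbers (40.7% of all genes tested), ATF4 by 0.54 and 0.51, PHGDH by 1.79 and 1.78 and CHAC1 by 2.40 and 2.15 for numbers 2 and 3 against number 1.

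The cytosolic genes followed each other across the 9 libraries to unequal degrees. As a measure of likeness, Pearson's r between a gene's log2 CPM and the mean of the other cytosolic genes was 0.998 for CARS1, 0.996 for SARS1 and 0.991 for WARS1, but 0.184 for KARS1 and -0.793 for QARS1. Among the mitochondrial genes it ran from -0.832 (RARS2) to 0.896 (TARS2) and 0.895 (AARS2). The libraries fall apart by replicate number, which these values include. Among 10200 other genes of at least 5 CPM, the 5 most like the cytosolic mean by this measure were ANKMY1 (0.997), CLIC4 (0.994), KIF21B (0.994), UNG (0.993) and ADM2 (0.992).

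The counting limits some of these values. Exons of 15 of the 35 genes overlap those of another counted gene, and for 11 that gene averaged above 5 CPM. HARS1 and HARS2 share 437 bases on opposite strands, and VARS2 shares 1858 of its 8448 exon bases with GTF2H4 on the same strand (29.8 beside 46.5 CPM). Values of such genes are uncertain to that extent.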

How the data were processed

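Poly(A) RNA was measured in 9 SW620 libraries, 3 per group, with TRIzol extraction and the Universal Plus mRNA-seq kit (NuGEN) per the labels' protocols. The submitters' processing notes list, for read handling, cutadapt 3.4 and bcl2fastq 2.20.0.422; for quality, MultiQC 1.10.1 and FastQC 0.11.9; and for alignment, counting and normalization TopHat2 2.1.1 with hg38, featureCounts 2.0.0, and DESeq2 1.26.0. How strand and multi-mapping reads were handled, and the annotation, is not given in the sources used here. The deposited counts are whole reads per gene, left unnormalized by the authors. The normalized signal the authors deposited equals those counts divided by 1 size factor per library (0.726 to 1.18) and was used for no result.

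Counts were fitted in R 4.3.3 with edgeR 4.0.16: filterByExpr (minimum count 10, minimum total 15), TMM, 1 robust quasi-likelihood fit of all 9 libraries with group as the only term, two-sided F tests and Benjamini-Hochberg adjustment over 15619 genes at 0.05. CPM used the scaled library totals, and log2 CPM a prior count of 2. Same-numbered libraries of different groups had correlated deviations from the group means (r 0.492 to 0.834, against -0.661 to 0.369 for different numbers, over 12593 genes), so a second fit, blocked on that number, is given wherever it changes a call. The deviations within a group cancel out, so a positive r for the same number lowers r for different numbers by arithmetic. The replicate number was tested by the F test of its 2 coefficients in that fit. No 2 libraries of a group agreed within counting noise (their chi-square over its degrees of freedom was 6.50 to 34.0). The fits were also run on simulated data, with planted changes larger than any synthetase difference called between treatments. That run therefore does not bear on differences as small as those called here.

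Coding length is the longest coding sequence in GENCODE v29, and gene coordinates are RefSeq's on GRCh38.p14. Per-library values are given for members called in either fit, the 3 mitochondrial members with the smallest blocked p in SM against untreated, the 2 most abundant of each kind and those that differ most between replicate numbers; partner genes are given by count, with values for called ones and for ATF4, DDIT3, ASNS, TRIB3 and CHAC1. The members and lists were chosen with earlier results of these data known. Alternatives were other scalings and filters, DESeq2 1.42.0, limma 3.58.1 voom, the 6 libraries compared, no robust estimation, the block and each library left out; the libraries numbered 2 and 3 alone were added after seeing the data.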

Additional observations from a re-analysis of the deposited data

How the results depend on the processing

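Without the replicate block, 0 of 35 synthetases were called in any of the 3 comparisons under every other scaling, filter, tool and left-out library tried without the replicate number. These settings called at most 11 genes of all tested. The replicate block gave 4 in SM against untreated and 8 in SM against DSM, beside 428 and 606 of all genes. With the block, DESeq2 called 3 and 5 (386 and 503 of all genes) and voom 3 and 8 (438 and 590). Other scalings called 4 and 8 (390 to 427 and 529 to 603 of all genes). In the libraries numbered 2 and 3 alone the counts were 2 and 6 without the block and 6 and 9 with it. Over all genes they were 73 and 186 without the block and 308 and 627 with it. With the replicate block and 1 library left out, the counts ran from 0 to 11 and from 0 to 12, beside 149 to 569 and 265 to 846 of all genes. DSM against untreated gave 0 in all of these. Between 17 and 22 synthetases differed between replicate numbers, 13 of them cytosolic in each of 7 settings.

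Leaving out 1 library without the block, the cytosolic median ran from -0.00157 to 0.256 in SM against untreated, from -0.101 to 0.0559 in DSM against untreated and from 0.0371 to 0.229 in SM against DSM, the first 2 changing sign. The mitochondrial median ran from -0.0206 to 0.0211, from -0.0541 to -0.00913 and from -0.0126 to 0.0469. With the replicate block the cytosolic median in SM against untreated ran from 0.0397 to 0.151, and the mitochondrial median in the 3 comparisons from -0.013 to 0.0107, from -0.0468 to -0.00677 and from 0.00606 to 0.0288. In the libraries numbered 2 and 3 alone the mitochondrial median was 0.0232 without and 0.0233 with the block in SM against DSM, and 0.00424 with the block in SM against untreated. The cause of these shifts was not tested. Without the block, the median 95% half-width of a log2 fold change in SM against untreated was 0.292 for cytosolic and 0.137 for mitochondrial genes, which limits the size that fit could call.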
